A study of Mus musculus with 4 samples.

Results

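The effect of cigarette smoke (CS) on genes of the insulin pathway was followed in lungs with intact p16, the cell cycle inhibitor encoded by Cdkn2a. The lungs were chosen by their labels alone: 4 p16+/+ lungs from mice kept in room air (RA) and 4 p16+/+ lungs from mice exposed to CS, of 15 lungs in the series, each run on 1 PCR array of the insulin signaling pathway with 84 target genes and 5 reference genes. All 8 mice were of the wild type strain B6(Cg)-Tyrc-2J/J. The RA mice were 24 weeks old, and the labels of the CS mice give 8 weeks of age followed by 16 weeks of CS. The other 7 lungs came from p16Luc mice (p16-/-), a luciferase knock-in at Cdkn2a (B6.Cg-Cdkn2a tm3.1Nesh) that carries Tyr c-2J as well, 3 in RA and 4 in CS, and entered only the estimate of the spread among lungs and the comparison of genotypes near the end. One sample record stood for all lungs of a group, and the records state neither cage nor litter, so the p-values measure the spread among these lungs. RNA came from whole lung lobes, in which fewer cells of a type and less RNA per cell cannot be told apart. Cdkn2a is not among the genes measured, nor is Igf1, nor Cyp1a1, a xenobiotic enzyme induced by components of smoke, so neither the genotype nor the exposure was checked in these values. The array also holds no defining marker of lung epithelium, endothelium or fibroblasts.

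Insulin and the insulin-like growth factors bind receptor tyrosine kinases, which phosphorylate the insulin receptor substrates and related docking proteins. From these, a branch through phosphoinositide 3-kinase (PI3K), Akt and mTOR promotes glucose uptake, protein synthesis and cell survival, and a second branch through Ras and Raf drives the MAP kinases and growth. In the lung the IGF axis is known for its part in development, repair and fibrosis, and Akt for survival of alveolar cells. The question put to the array here was which of these genes differ between CS and RA lungs when p16 is present, and, where no difference was found, how large a difference the lungs still allow.

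What the array records is the number of PCR cycles (CT) that a product needs to reach the detection threshold. A cycle stands for a doubling, so a lower CT means more transcript. The level of a gene in a lung is given as -ΔCT, the mean CT of the 5 reference genes of that lung minus the CT of the gene, on the log2 scale. Primer pairs differ in efficiency, so levels were compared between lungs for 1 gene and never between genes. Of the 672 target CTs of the 8 lungs, 3 were blank and 4 were over 35 cycles, and these 7 were set to 35.

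The normalization rests on 5 genes for housekeeping functions, the cytoskeletal actin Actb, the MHC class I light chain B2m, the glycolytic enzyme Gapdh, the lysosomal glucuronidase Gusb and the chaperone Hsp90ab1, and 2 of these rows needed attention first. In each group an extra column equals the mean of the group's lungs, with a deviation of 0.0000 cycles over the 87 other genes, and it was not counted as a lung. Read in the columns as deposited, Gusb missed that mean by 0.183 to 0.761 cycles and Hsp90ab1 by 0.357 to 0.935 cycles in the 3 groups that could be compared. Moved by 1 place, both rows met it with a deviation of 0.0000 cycles in all 4 groups. The match is the same for a gap at any RA lung, and the per-lung levels given with the paper place it at RA lung 1. That lung has then no CT for either gene. From its other 3 reference genes and the offsets in RA lungs 2 to 4, 27.6 cycles (Gusb) and 23.7 cycles (Hsp90ab1) were filled in. The spread given for these 2 genes among RA lungs therefore includes 1 value that was not measured. Both filled values also enter the reference mean of RA lung 1, and through it the -ΔCT of every target in that lung. The measured Gusb CTs of RA lungs 2 to 4 lay from 28.25 to 28.28 cycles.

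None of the reference genes differed between CS and RA lungs beyond the spread. The mean CT of the 5 was 25.2, 26.2, 25.6 and 25.9 cycles in RA lungs 1 to 4 and 25.2, 25.0, 27.3 and 24.1 cycles in CS lungs 1 to 4. The CS lungs lay on both sides of the RA lungs, with CS lung 3 the latest and CS lung 4 the earliest of the 8. The group means were 25.7 ± 0.413 (SD, n = 4) in RA and 25.4 ± 1.34 (SD, n = 4) in CS (two-sided exact permutation test, p = 0.686). Single reference genes differed by -0.467 cycles (Gapdh) to -0.0893 cycles (Hsp90ab1), with exact permutation p from 0.629 to 0.943 and an adjusted p of 0.943 for each of the 5. Relative to their own mean they shifted by -0.175 (Gapdh) to 0.203 cycles (Hsp90ab1), with exact permutation p from 0.4 to 0.943. Gapdh had the widest spread on that scale, from -0.895 to 0.983 cycles in RA lungs and from -1.62 to 0.495 cycles in CS lungs.

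**Figure D1:**
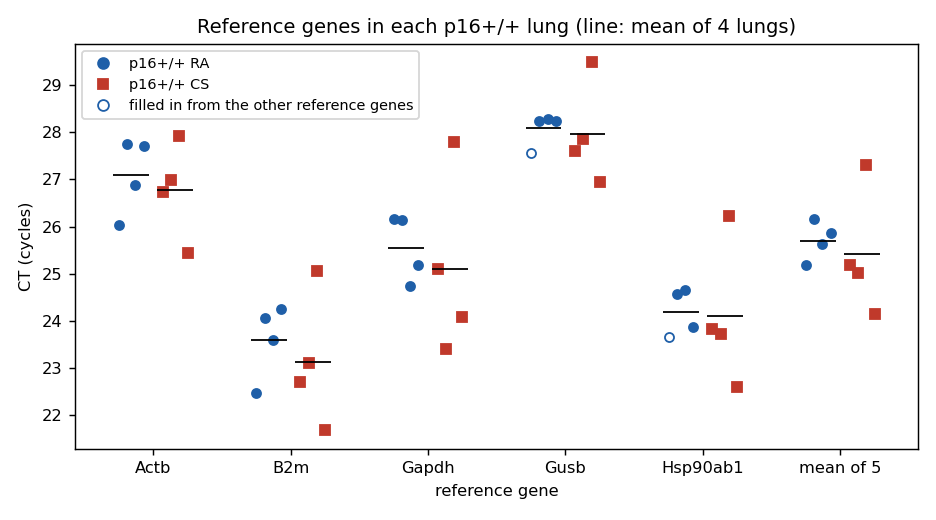
CT (cycles) of the 5 reference genes and of their mean in each p16+/+ lung, RA as blue circles and CS as red squares, with a line at the mean of 4 lungs; open circles are the 2 values filled in for RA lung 1. The CS lungs spread from 24.1 to 27.3 cycles in the mean of 5, around the RA lungs at 25.2 to 26.2.

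No target passed the test for a change with CS in p16+/+ lungs. With limma over all 15 lungs and Benjamini-Hochberg adjustment, 0 of 84 targets passed an adjusted p of 0.05, which is 0% of the targets tested, and the adjusted p was 0.985 for every target. No target reached an unadjusted p under 0.05 by limma (smallest p = 0.195, Igf2), by the methods' t-test (smallest p = 0.0626, Igf2) or by the two-sided exact permutation test of 4 against 4 lungs (smallest p = 0.0857, Igf2), which cannot give a p below 0.0286. There was no target whose CS lungs all lay above or all below its RA lungs (0 of 84, 0%). For 18 targets all 4 CS lungs lay inside the range of the RA lungs.

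The measured changes were small beside the spread. Of the 84 log2 changes, 53 (63.1%) were above 0 and 31 below, with a median of 0.19 and a range from -0.85 (Cfd) to 1.47 (Vegfa). The split of directions moved with the scaling, with 44 of 84 changes above 0 (median 0.03) when each lung was scaled to its median target. There were 43 (median 0.01) with Gapdh alone as the reference and 67 (median 0.48) without normalization. With Actb, B2m and Gapdh, the references measured in every lung, 47 were above 0 (median 0.06). The split also moved with single lungs, with 34 above 0 without RA lung 1 (median -0.12) or without CS lung 2 (median -0.17). The counts of directions given for groups of genes are therefore descriptions of these 8 lungs under 1 scaling. In 83 targets the change was under 1 in size, that is under 2-fold, and in 59 it was under 0.5. In 81 targets the change was smaller than the larger of the 2 group SDs, and in 66 it was smaller than both. Taken as 1 value per lung, the median -ΔCT of the 84 targets was -5.36, -4.62, -3.80 and -3.65 in RA lungs 1 to 4 and -4.33, -3.18, -4.41 and -4.87 in CS lungs 1 to 4. The groups overlapped and their means differed by 0.16 (two-sided exact permutation test, p = 0.8), a difference that was -0.175 without RA lung 1 and -0.18 without CS lung 2.

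The lungs nevertheless leave room for sizeable changes. The standard error of a log2 change was 0.82 in the median target, from 0.52 to 1.77, and its 95% interval reached 1.74 to either side in the median target, a factor of 3.34. No target had an interval wholly within 2-fold either way. For 35 targets (41.7%) it lay within 4-fold, a count that dropped to 18 without RA lung 3, 19 without CS lung 1, 21 without CS lung 3 and 23 without CS lung 4, and for 72 within 8-fold. A rise of 2-fold lay outside the interval for 7 targets and a fall of 2-fold for 14, whereas a 4-fold rise lay outside for 46 targets and a 4-fold fall for 54. These intervals are for 1 target at a time and are not adjusted over the 84.

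**Figure D2:**
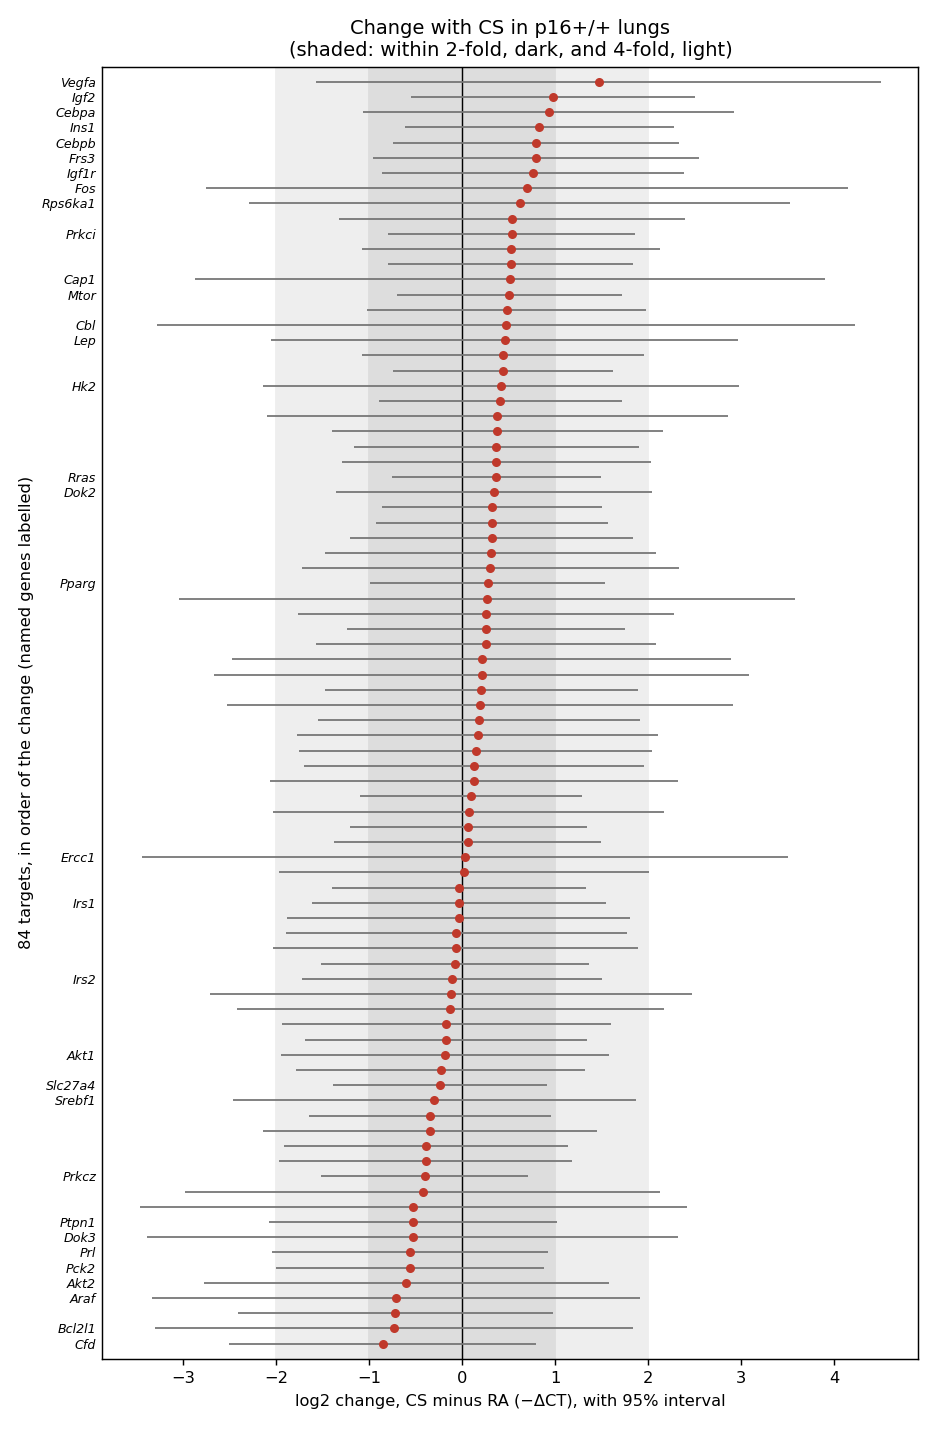
Log2 change (CS minus RA, -ΔCT) of the 84 targets with 95% intervals from limma, in order of the change, with the named genes labelled and bands at 2-fold and 4-fold. The changes run from -0.85 to 1.47, every interval holds 0, and no interval lies wholly inside the 2-fold band.

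Among the ligands and receptors, Igf2, Ins1 and Igf1r had the highest changes. Igf2, insulin-like growth factor 2, had the smallest p on the array by all 3 tests. Its -ΔCT was -6.22, -6.09, -4.83 and -5.88 in RA lungs 1 to 4 and -4.77, -4.06, -5.45 and -4.85 in CS lungs 1 to 4. All CS lungs were above the RA median, but RA lung 3 was higher than CS lung 3 and close to CS lungs 1 and 4, so the groups overlap. The log2 change was 0.97 (standard error 0.72, 95% interval -0.55 to 2.50, unadjusted p = 0.195 and adjusted p = 0.985 from limma), and the interval runs from a 1.47-fold fall to a 5.65-fold rise.

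Igf1r, the receptor that binds both insulin-like growth factors, gave -ΔCT values of -1.89, -2.26, -0.89 and -2.62 in RA lungs and -0.64, -0.91, -1.67 and -1.40 in CS lungs. RA lung 3 lay among the CS lungs and RA lung 1 lay just below CS lung 3. The change was 0.76 on the log2 scale, with an interval of -0.86 to 2.38, which leaves out a 2-fold fall and reaches a 5.21-fold rise. Ins1, one of the insulin genes of the mouse, was at -3.88, -4.02, -2.16 and -3.17 in RA lungs and -2.18, -1.70, -3.01 and -3.00 in CS lungs, again with RA lung 3 among the CS lungs, and its change was 0.83 (interval -0.61 to 2.27). The main site of Ins1 is another organ, and what product its well amplified at mean CTs of 29.0 (RA) and 27.9 (CS) was not tested.

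Other hormone genes lay to either side of 0. Prl, which encodes prolactin, stood at -4.71, -4.41, -4.38 and -2.64 in RA lungs and -4.91, -3.44, -5.24 and -4.78 in CS lungs. CS lungs 1, 3 and 4 were below every RA lung, while CS lung 2 was above RA lungs 1 to 3, and the change was -0.56 (interval -2.04 to 0.92). Lep, the adipocyte hormone leptin, had a change of 0.46 with a wide interval of -2.05 to 2.97 (SD 0.90 in RA and 0.49 in CS). Of the 9 targets for ligands, hormones and the IGF axis, 7 had a change above 0 and 2 below, with a median of 0.48, beside 63.1% above 0 and a median of 0.19 over all 84 targets, and none passed the test.

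The substrates that link the receptors to both branches had changes close to 0. Irs1, insulin receptor substrate 1, was at -5.50, -5.16, -3.74 and -3.40 in RA lungs and -4.82, -3.31, -4.82 and -4.99 in CS lungs. The RA lungs fell into a low pair (lungs 1 and 2) and a high pair (lungs 3 and 4), and CS lung 2 stood above the other CS lungs, which lay close together. The change was -0.04 (interval -1.61 to 1.54). Irs2, the second substrate, was at -3.27, -1.99, -1.27 and -1.36 in RA lungs and -2.33, -1.45, -0.86 and -3.68 in CS lungs, so that CS lungs 3 and 4 enclosed all RA lungs, and its change was -0.11 (interval -1.72 to 1.51). For both substrates a change over 4-fold in either direction lies outside the interval.

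The docking proteins named here differed in how far they varied from lung to lung, with SDs of 2.89 in RA and 2.40 in CS for Dok3 against 1.10 and 1.15 for Frs3. Dok3, a docking protein known as an inhibitor of signaling in B cells and macrophages, ranged over -5.26, -2.52, 0.80 and 0.65 in RA lungs and -2.85, 0.83, -1.55 and -4.90 in CS lungs. RA lungs 3 and 4 and CS lung 2 were high and RA lung 1 and CS lung 4 were low, and the change of -0.53 had an interval of -3.39 to 2.33. Its relative Dok2, which acts in T cells and myeloid cells, was at -7.49, -6.84, -4.35 and -4.68 in RA lungs and -6.08, -3.98, -5.85 and -6.06 in CS lungs, with a change of 0.35 (interval -1.35 to 2.04). Frs3, the adaptor that couples fibroblast growth factor receptors to Ras, lay at -2.37, -0.90, -0.67 and -2.93 in RA lungs and -0.36, -0.71, -0.02 and -2.59 in CS lungs, where CS lungs 1 and 3 were above all RA lungs and CS lung 4 was below 3 of them, and its change was 0.80 (interval -0.95 to 2.54). Of the 8 substrates and docking proteins, 5 had a change above 0 and 3 below (median 0.25, none past the test).

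Adaptors and phosphatases gave no common direction, with 5 of 11 above 0, 6 below and a median of -0.03. Ptpn1, the phosphatase PTP1B that removes phosphate from the insulin receptor, was at -2.85, -2.17, -3.02 and -0.66 in RA lungs and -2.52, -1.65, -4.11 and -2.52 in CS lungs. RA lung 4 was the highest and CS lung 3 the lowest of the 8, and the change was -0.52 (interval -2.07 to 1.02). Cap1, whose protein binds actin and adenylyl cyclase, and Cbl, a ubiquitin ligase of receptor tyrosine kinases, had among the widest intervals on the array, -2.87 to 3.90 around 0.52 for Cap1 and -3.27 to 4.23 around 0.48 for Cbl. The p16+/+ lungs themselves lay closer together for Cap1 (SD 0.45 in RA and 0.93 in CS) and Cbl (SD 0.46 in RA and 0.71 in CS). With p16+/+ lungs alone in the fit the standard error of Cbl was 0.54 in place of 1.77.

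The PI3K, Akt and mTOR branch was split evenly, with 6 of 12 targets above 0, 6 below, a median of -0.02 and none past the test. Akt1, the kinase at the centre of the branch, gave -ΔCT values of -6.68, -7.51, -4.77 and -4.56 in RA lungs and -6.54, -4.22, -6.18 and -7.31 in CS lungs. In both groups the lungs were far apart, RA lungs 3 and 4 and CS lung 2 forming the high end and RA lung 2 and CS lung 4 the low end. The group means were -5.88 ± 1.45 (SD, n = 4) in RA and -6.06 ± 1.32 (SD, n = 4) in CS. The change of -0.18 had an interval from -1.94 to 1.58, so a change of 4-fold either way lies just outside it. That narrow margin rests on a spread estimated with the p16-/- lungs included, not on the p16+/+ lungs alone. The change was -0.80 without CS lung 2 and 0.26 without RA lung 4.

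Akt2, the isoform best known for insulin-driven glucose uptake, also had RA lungs 3 and 4 and CS lung 2 at the high end, with -5.61, -5.49, -3.11 and -2.10 in RA lungs and -5.09, -2.63, -4.67 and -6.31 in CS lungs. Its change was -0.60 (interval -2.77 to 1.58), and it was -1.28 without CS lung 2 and 0.06 without RA lung 4. Mtor, the growth kinase downstream of Akt, was measured more closely, at -3.31, -4.37, -3.51 and -4.42 in RA lungs and -3.33, -3.02, -3.52 and -3.71 in CS lungs. RA lungs 2 and 4 were lower than the other 6 lungs, and the change of 0.51 had an interval of -0.70 to 1.72, which excludes a 2-fold fall and a rise over 3.3-fold.

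In the Ras and MAP kinase branch 8 of 11 targets had a change above 0 and 3 below, with a median of 0.32 and none past the test. Araf, a kinase that Ras recruits to the membrane, was at -7.06, -6.21, -3.03 and -2.14 in RA lungs and -7.07, -2.87, -4.02 and -7.30 in CS lungs, with lungs of either group at both ends, and its change of -0.70 carried an interval of -3.33 to 1.92.

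Rras, a small GTPase related to Ras, had one of the narrowest intervals of all targets. Its -ΔCT was -0.80, -1.56, -1.17 and -2.28 in RA lungs and -0.94, -1.15, -1.15 and -1.10 in CS lungs. The 4 CS lungs lay close together (SD 0.10) and inside the range of the RA lungs, and the change was 0.37 (interval -0.75 to 1.49). Rps6ka1, the ribosomal S6 kinase RSK1, had the highest value of the branch, 0.62 with an interval of -2.28 to 3.52.

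The atypical protein kinases C, which act downstream of PI3K, differed in sign. Prkcz, the zeta isoform, had the narrowest interval of the 84 targets. It was at -5.96, -6.17, -5.87 and -5.18 in RA lungs and -6.03, -5.80, -6.21 and -6.75 in CS lungs, with RA lung 4 the highest and CS lung 4 the lowest. The change of -0.40 (interval -1.51 to 0.71) leaves out a rise of more than 1.63-fold and a fall of more than 2.85-fold. Prkci, the iota isoform, was at -6.02, -6.29, -5.18 and -4.34 in RA lungs and -5.44, -4.17, -4.90 and -5.18 in CS lungs, where the CS lungs lay inside the RA range except CS lung 2, and its change was 0.53 (interval -0.79 to 1.86). Whether the 2 isoforms differ in their change was not tested.

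**Figure D3:**
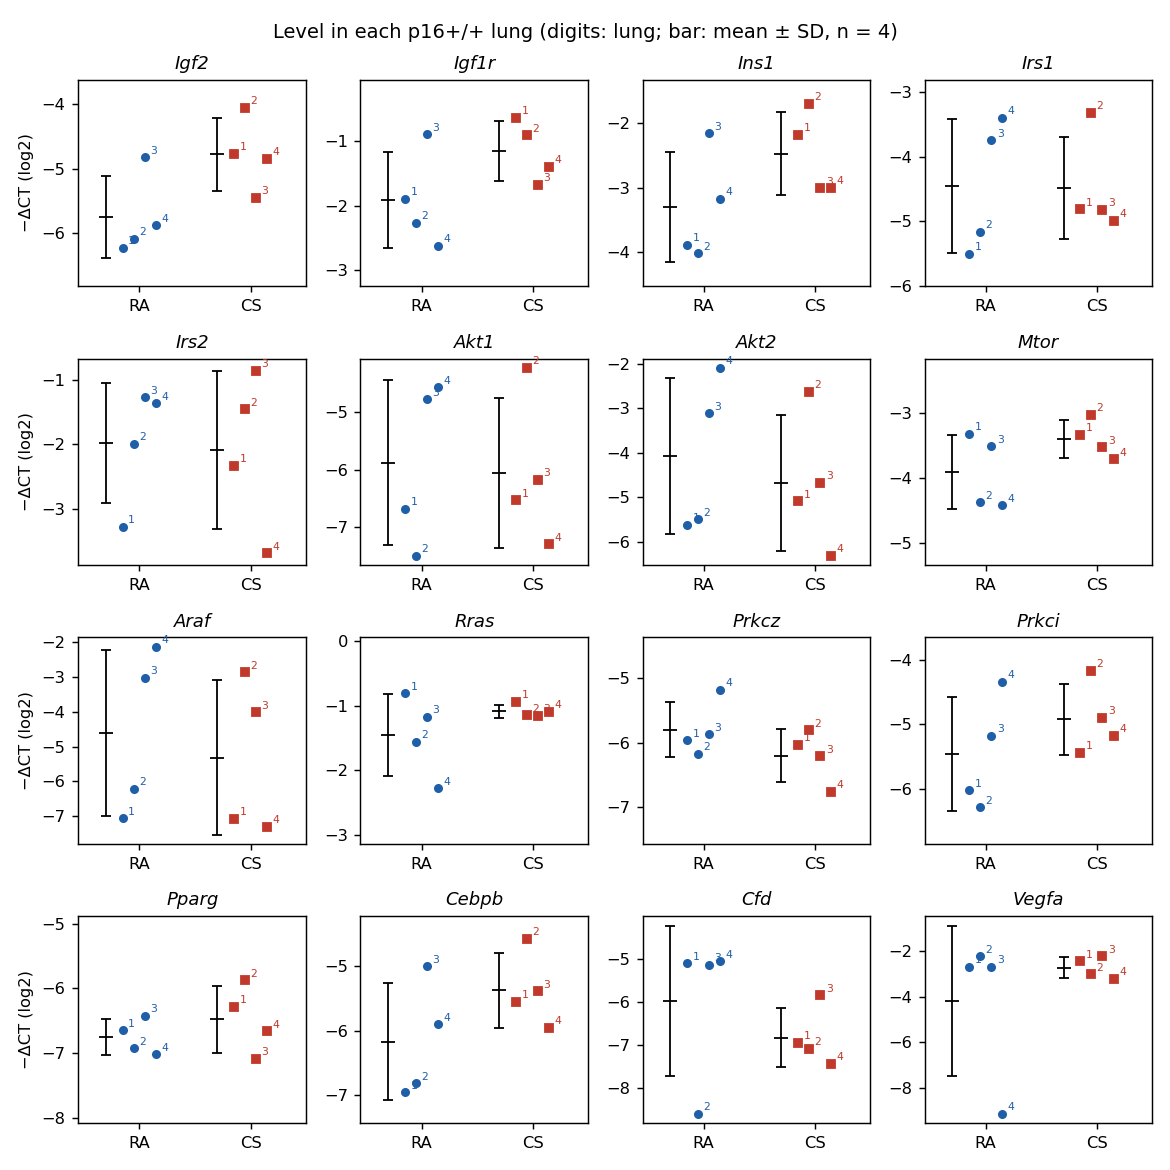
-ΔCT (log2) of 16 named targets in each p16+/+ lung, RA as blue circles and CS as red squares, with the lung number beside each point and the mean ± SD (n = 4) as a bar. The groups overlap in every panel, the 4 CS lungs of Rras lie from -1.15 to -0.94, and single lungs stand apart in Cfd (RA lung 2, -8.58) and Vegfa (RA lung 4, -9.14).

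Transcription factors had 6 of 8 changes above 0 and a median of 0.27, with none past the test. Pparg, the nuclear receptor of fat cell differentiation that is also active in alveolar macrophages, was at -6.65, -6.92, -6.42 and -7.02 in RA lungs and -6.29, -5.87, -7.09 and -6.66 in CS lungs. CS lungs 1 and 2 were above and CS lung 3 below all RA lungs, and the change was 0.27 (interval -0.99 to 1.54, exact permutation p = 0.429 for 4 against 4), so a change of 4-fold either way lies outside the interval. Cebpb, a factor of acute phase and macrophage genes, was at -6.95, -6.82, -5.00 and -5.90 in RA lungs and -5.55, -4.58, -5.39 and -5.96 in CS lungs, with a change of 0.80 (interval -0.74 to 2.33).

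Cebpa, which is required for alveolar and adipocyte differentiation, was at -2.20, -1.47, -0.47 and -3.42 in RA lungs and -0.26, -0.94, 0.15 and -2.78 in CS lungs, so CS lungs 1 and 3 were the highest and CS lung 4 next to the lowest of the 8. Its change was 0.93 (interval -1.06 to 2.93). Fos, an immediate early gene, spread from -5.35 to -0.85 in RA lungs and from -3.39 to -1.17 in CS lungs, and its change of 0.70 had an interval of -2.75 to 4.15. Srebf1, the factor that induces lipogenic genes, had the lowest value of the list, -0.30 (interval -2.47 to 1.87).

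Genes of metabolism lay on both sides of 0. In carbohydrate metabolism 6 of 9 targets had a change above 0 and 3 below, with a median of 0.13, and in lipid metabolism and uptake 3 of 4 above 0, with a median of 0.26, none past the test in either. Pck2, the mitochondrial phosphoenolpyruvate carboxykinase, was at -3.68, -4.00, -3.29 and -2.32 in RA lungs and -4.23, -2.66, -4.24 and -4.40 in CS lungs. CS lungs 1, 3 and 4 were below every RA lung and CS lung 2 was above RA lungs 1 to 3, the arrangement also seen in Prl, and the change of -0.56 had an interval from a 4.01-fold fall to a 1.84-fold rise. Hk2, the inducible hexokinase, had a change of 0.42 (interval -2.14 to 2.97), with RA lung 1 at -5.02 and the other 7 lungs from -2.88 to -1.06. The fatty acid transporter Slc27a4 had -0.23 with one of the narrowest intervals (-1.38 to 0.91).

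Of the remaining targets, Cfd and Vegfa had the most extreme changes, and both moved most with a single RA lung, whose removal made the change of Cfd larger and took away that of Vegfa. Cfd, the adipocyte protease adipsin of the alternative complement pathway, was at -5.09, -8.58, -5.14 and -5.05 in RA lungs and -6.94, -7.08, -5.83 and -7.43 in CS lungs. RA lungs 1, 3 and 4 lay above all CS lungs and RA lung 2 lay below them, so the groups overlap through 1 lung. The CT of Cfd in that lung was 34.7 cycles, close to the limit of 35, against 30.3 to 30.9 cycles in the other RA lungs. Whether it stands for a low level or a poor reaction was not tested. The change was -0.85 (interval -2.50 to 0.80, unadjusted p = 0.289 from limma). Without RA lung 2 it was -1.73, with an unadjusted p of 0.0156 and an adjusted p of 0.993 from limma, and this was the only target past an unadjusted p of 0.05 when any 1 p16+/+ lung was left out.

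Vegfa, a growth factor for endothelial cells, was at -2.67, -2.22, -2.69 and -9.14 in RA lungs and -2.44, -3.00, -2.21 and -3.20 in CS lungs. RA lung 4 had a blank CT that was set to 35, so its -9.14 is not a measured level. The other 7 lungs lay between -3.20 and -2.21, with CTs of 27.3 to 29.5 cycles. Whether the blank stands for a low level or a missing reaction was not tested. The change of 1.47 (interval -1.57 to 4.51) became -0.19 without RA lung 4, or with blank CTs left missing, which reverses its sign. Bcl2l1, the survival factor Bcl-xL, ranged over -6.66, -4.91, -2.45 and -0.75 in RA lungs and -5.64, -1.83, -4.38 and -5.83 in CS lungs, and its change of -0.73 had an interval of -3.29 to 1.84. Ercc1, a DNA repair nuclease subunit, had a change of 0.03 with an interval of -3.44 to 3.51, where RA lung 1 was at -7.19 and the other RA lungs at -2.66 to -2.07.

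Targets known mainly from cells other than those of the lung wall gave no common direction. The 5 targets that are secreted by or mark adipocytes (Cfd, Retn, Lep, Ucp1 and Pparg) had 3 changes above 0 and 2 below, with a median of 0.20. The 3 targets known mainly from blood cells and activated macrophages (Dok2, Dok3 and Nos2) had 1 change above 0 and 2 below, with a median of -0.08. All 8 of these targets had measured CTs in each of the 8 lungs. The part of such cells in any single change was not tested. Of 13 targets whose main site is another organ (among them Ins1 and Prl), 12 had a CT of 35 or less in all 8 lungs, and 10 had a change above 0, with a median of 0.26. The mean CT of these 13 targets over the 8 lungs ran from 25.7 to 33.5 cycles. What product their wells amplified was not tested.

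The spread among the 8 p16+/+ lungs was not shown to differ between the groups. The mean absolute deviation of a lung from its group over the 84 targets was 1.06, 0.70, 0.72 and 1.04 in RA lungs 1 to 4 and 0.46, 0.96, 0.62 and 0.76 in CS lungs 1 to 4, which overlap (difference -0.18, two-sided exact permutation test, p = 0.229). The SD was larger in RA for 57 targets and larger in CS for 27, with medians of 0.92 and 0.87. The widest SDs among RA lungs reached 3.32 (Vegfa, through its blank CT) and those among CS lungs reached 2.44. The bounds given above rest on the spread of all 15 lungs, the 7 p16-/- lungs included. With p16+/+ lungs alone in the fit the median standard error was 0.66 in place of 0.82, and 52 targets in place of 35 had an interval within 4-fold. Not every bound became narrower. Among the 56 targets in columns 1 to 8 of the plate, the highest standard error was 1.53 with p16+/+ lungs alone against 1.39 with all 15.

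**Figure D4:**
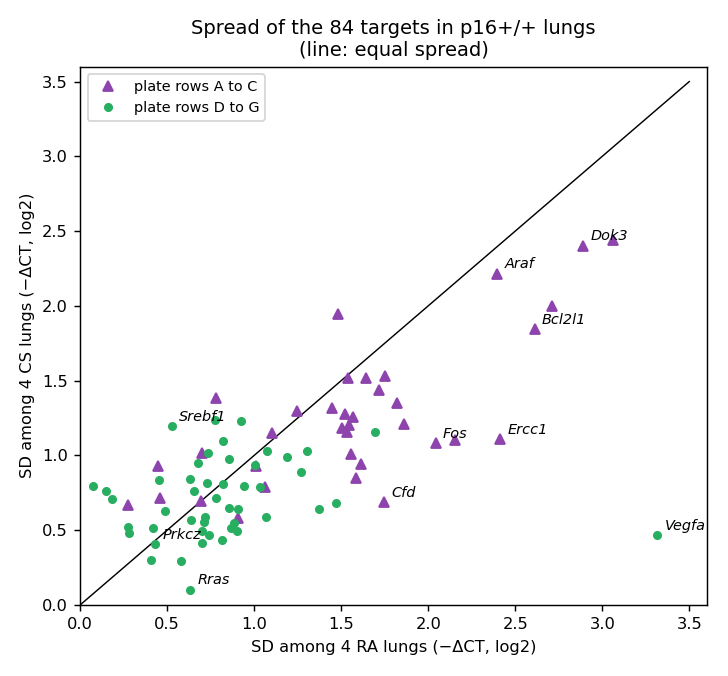
SD of -ΔCT among the 4 CS lungs against the SD among the 4 RA lungs for each of the 84 targets, with triangles for plate rows A to C, circles for rows D to G and a line of equal spread. Most targets with an SD over 1.5 in either group sit in rows A to C, and 57 targets lie below the line.

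Much of that spread was shared by the targets of a lung. CS lung 2 was above its group mean in 79 of 84 targets and the highest CS lung in 61, and it lay above all 4 RA lungs in 41. CS lung 4 was above its group mean in 15 targets and the lowest CS lung in 43. Among RA lungs, lung 1 was above the group mean in 13 targets and lung 2 in 27, but lung 3 in 68 and lung 4 in 61.

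The deviations also followed the place of the target on the plate. In plate row A the median deviation of a lung from its group ran from -1.18 to 1.10 among RA lungs and from -1.33 to 1.74 among CS lungs. In row G it ran from -0.21 to 0.21 among RA lungs and from -0.35 to 0.33 among CS lungs. The median SD accordingly fell from 1.46 in RA and 1.33 in CS in row A to 0.63 and 0.61 in row G. The median change, by contrast, lay between -0.06 (row F) and 0.42 (row D) in all 7 rows. Targets in plate columns 9 to 12 came at -0.40 cycles against columns 1 to 8 in RA lungs and at -0.46 cycles in CS lungs (two-sided exact permutation test, p = 1), but the RA mean rests on RA lung 2 at -1.56 cycles. RA lungs 1, 3 and 4 lay from -0.10 to 0.05 cycles, with a mean of -0.01, and the 4 CS lungs from -0.56 to -0.36 cycles, below each of those 3. In p16-/- lungs this offset ran far wider, at 0.15, 2.66 and 2.72 cycles in RA lungs 1 to 3 and 3.87, 1.39, 0.35 and -0.004 cycles in CS lungs 1 to 4. The median standard error in columns 9 to 12 was 1.18 against 0.73 in columns 1 to 8 with all 15 lungs in the fit, and 0.72 against 0.64 with p16+/+ lungs alone. Columns 9 to 12 hold 28 targets, among them Cap1, Cbl, Hk2, Lep and Rps6ka1. Of these 28, 4 had an interval within 4-fold with all 15 lungs and 17 with p16+/+ lungs alone. Targets are laid out by gene name, so row and gene cannot be told apart.

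**Figure D5:**
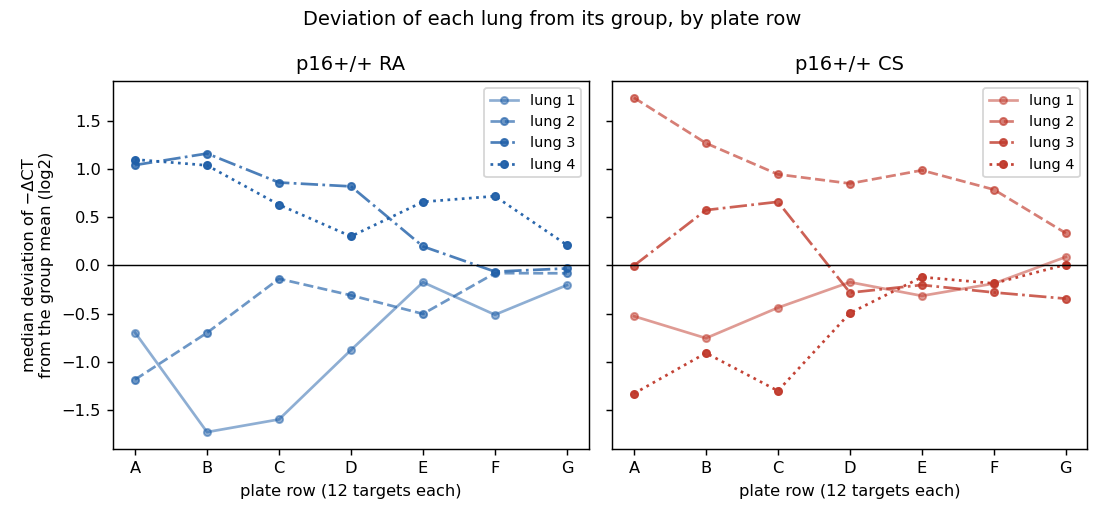
Median deviation of -ΔCT from the group mean (log2) over the 12 targets of each plate row, 1 line per lung, RA on the left and CS on the right. The lines fan out in rows A to C, up to 1.74 in CS lung 2 and down to -1.73 in RA lung 1, and come together in row G, within 0.35 of 0.

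The number of late wells did not differ between the groups beyond the spread. The median target CT was 30.1 ± 0.694 cycles (SD, n = 4) in RA and 29.6 ± 1.50 cycles (SD, n = 4) in CS (two-sided exact permutation test, p = 0.571). Between 34 and 52 targets per RA lung and between 12 and 60 per CS lung were over 30 cycles or blank (exact permutation p = 0.486), with the lowest number in CS lung 2 and the highest in CS lung 3.

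Whether the change with CS depended on p16 was tested as the difference of the 2 changes in the same limma fit. The change in p16-/- lungs minus that in p16+/+ lungs passed in 0 of 84 targets after adjustment (smallest adjusted p = 0.987) and in 0 at an unadjusted p under 0.05. It was above 0 in 70 targets, with a median of 0.60 and a median half-interval of 2.56, so differences of several fold remain within the bounds. The direction rests on 1 lung. In p16-/- CS lung 4 the median -ΔCT of the targets was -0.45, against -3.16 to -2.12 in the other p16-/- CS lungs, and 82 of 84 targets were above their group mean. Its reference genes stood apart as well, with Gusb at 4.59 cycles relative to the mean of the 5 (2.63 to 3.36 in the others) and B2m at -2.96 cycles (-0.90 to -0.83). On that scale the references also differed between the genotypes. Gapdh lay from -3.92 to -2.78 cycles in p16-/- lungs and from -1.62 to 0.98 cycles in p16+/+ lungs. B2m lay from -2.71 to -1.60 cycles in p16+/+ lungs and from -0.99 to 0.35 cycles in p16-/- lungs other than CS lung 4. The cause was not tested. Without p16-/- CS lung 4 the difference was above 0 in 41 targets with a median of -0.06. With each lung scaled to its median target it was above 0 in 45, with a median of 0.06. Leaving out any 1 of the other 14 lungs gave medians from 0.29 (without p16+/+ RA lung 4) to 0.99 (without p16-/- CS lung 1). The smallest p was that of Cfd, with -0.85 in p16+/+ lungs and 1.54 in p16-/- lungs, a difference of 2.39 (interval -0.04 to 4.82, unadjusted p = 0.0534 from limma). Without p16+/+ RA lung 2, where the CT of Cfd was 34.7 cycles, its unadjusted p was 0.0024 and the adjusted p 0.202 from limma. The unadjusted p of Cfd from limma was 0.101 without p16+/+ RA lung 3 and 0.101 with each lung scaled to its median target. It was 0.0345 with Actb, B2m and Gapdh as the reference and 0.0340 with plate column effects removed. Leaving out p16-/- CS lung 1 gave 3 targets at an unadjusted p under 0.05 from limma. No target passed after adjustment in any of these settings. Without p16-/- CS lung 4 the smallest p was that of Igf1r (unadjusted p = 0.0554 from limma). For Igf2 the difference was -0.46 (interval -2.70 to 1.79), for Akt1 0.77 (interval -1.83 to 3.37) and for Pparg 0.23 (interval -1.63 to 2.08).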

How the data were processed

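Total RNA of whole lung lobes was measured by the authors on a QIAGEN PAMM030 insulin signaling array with SYBR Green. The authors deposited unnormalized CT values (log2 scale), 1 column for each lung, and the baseline and threshold settings are not given in the sources used here. A second table holds the authors' comparisons (a fold ratio of normalized levels and its p-value), of which none was used. The paper gives 5 lungs per group, whereas 15 lung columns (4, or 3 for p16-/- RA, in each group) were used and 4 columns that equal a group mean were left out. That the gap in Gusb and Hsp90ab1 belongs to RA lung 1 was taken from the per-lung levels given with the paper. Blank CTs and those over 35 were set to 35. The -ΔCT of 84 targets was tested by limma (version 3.58.1, R 4.3.3), all 15 lungs and 4 groups in one fit with 11 residual degrees of freedom, with Benjamini-Hochberg adjustment over 84 targets at 0.05. Single values had two-sided exact permutation tests (Python 3.11.15, numpy 2.4.6, pandas 2.3.3, scipy 1.17.1, matplotlib 3.10.9). The methods' t-test was Student's, on the same values. The limma step was tested on simulated data, with independent errors and, for each target, the same SD in all groups. Deviations shared by the targets of a lung were not simulated. Precision is limited by the number of lungs and, for CTs close to 35, by the few molecules behind them. Named genes are the reference genes, Akt1, Pparg, Igf1r, Igf2, Irs1, Irs2, the 8 highest and 8 lowest changes, the 6 smallest p, the highest and lowest of each list, and the 3 narrowest and 3 widest intervals, where a gene not reported here was not replaced. The members and lists were chosen with earlier results of these data known. Some genes of the array are not reported here but stayed in every fit and count. The RefSeq gene table (GRCm38.p6) held all 89 symbols and was used only to check names.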

Additional observations from a re-analysis of the deposited data

Results flagged for a closer look

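Of 88 groups of 4 values, 10 held a lung whose gap to the nearest other lung exceeded Dixon's limit. Chance flags about 5% of independent groups, but these groups share lungs. Some flagged genes were also named for an extreme change or a wide interval, so the 5% is no yardstick here. In RA lungs, Cfd stood apart in lung 2 (-ΔCT of -8.58, the others from -5.14 to -5.05), Ercc1 in lung 1 (-7.19, the others from -2.66 to -2.07), Prl in lung 4 (-2.64, the others from -4.71 to -4.38) and Vegfa in lung 4 (-9.145, from a blank CT set to 35, the others from -2.69 to -2.22). In CS lungs, every flag fell on lung 2, which was high in Dok2 (-3.98, the next at -5.85), Irs1 (-3.31, the next at -4.82), Pck2 (-2.66, the next at -4.23) and Rps6ka1 (-4.41, the next at -5.38). CS lung 2 was also the highest of its group in 61 of 84 targets. The Gusb CT of RA lung 1 (27.56 cycles, the others from 28.25 to 28.28) was flagged too, and it is a filled-in value. RA lung 2 had an average CT in plate columns 9 to 12 that differed by -1.56 cycles from its columns 1 to 8, against -0.10 to 0.05 cycles in the other RA lungs. Leaving out RA lung 2 moved the change of Cfd from -0.85 to -1.73, and leaving out CS lung 2 moved those of Pck2 from -0.56 to -0.97 and of Irs1 from -0.04 to -0.43. The causes of these values were not tested.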

How the results depend on the processing

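The count of targets past the adjusted threshold was 0 under all 38 other settings, for CS against RA and for the difference between genotypes, which was fitted where both genotypes were in the fit. Other results moved, and the cause was not tested. The difference in the median of 84 targets (0.16) was -0.0161 with Gapdh alone as the reference and -0.0842 with plate column effects removed, and leaving out 1 lung gave -0.18 to 0.395 (-0.175 without RA lung 1, -0.18 without CS lung 2). The difference in spread (-0.178) was 0.261 without normalization, 0.201 with Gusb and Hsp90ab1 as deposited and 0.22 with a CT limit of 30, and -0.328 to -0.0171 with 1 lung left out. The count of targets with an interval within 4-fold (35) was 58 with each lung scaled to the median target, 16 without normalization, 62 with a CT limit of 30, 59 with the group-mean column counted as a lung, 58 with array quality weights, 73 with plate column effects removed, and 18 to 28 with 1 p16+/+ lung left out (18 without RA lung 3, 19 without CS lung 1, 21 without CS lung 3, 23 without CS lung 4) and 30 to 48 with 1 p16-/- lung left out. For CS against RA in p16+/+ lungs, targets past an unadjusted 0.05 by limma numbered 0 to 1 with 1 lung left out. There was 1 (Igf2, unadjusted p = 0.0346 from limma, change 1.20) with CS lung 3 and p16-/- CS lung 4, which had the latest mean reference CTs of the series, both left out, a setting chosen after seeing the data. Column numbers did not pair the lungs (correlations of their deviations of 0.56, -0.46, 0.25 and -0.19, with 1 of 4 RA lungs closest to its own number), and the replicate block called 0 targets with 52 intervals within 4-fold. Of 1253 values of named genes under other settings, 1191 kept their sign and 62 did not, none of them called, and 12 of 33 named genes kept it throughout. Settings that differed only in the p16-/- lungs, a robust estimate of the spread or the replicate block could not change these values. Their signs were kept by design, so the 1191 overstates how stable the signs are. The 11 settings chosen after seeing the data include leaving out each p16-/- lung and placing the gap in Gusb and Hsp90ab1 at RA lungs 2, 3 and 4, which gave differences in the median of 0.0121, 0.135 and 0.0476 and 44, 52 and 47 of 84 changes above 0.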
